A study of Oryctolagus cuniculus with 17 samples.

Results

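The lungs of preterm rabbit pups kept in hyperoxia until postnatal day 7 (HT7) were compared with those of pups kept in normoxia for the same time (NT7). The 3 HT7 and 3 NT7 samples, chosen by their labels from the 17 of the series, were read at every locus of the deposited count table. Of 13313 loci, 12628 held enough counts to be tested and 685 did not. All pups were New Zealand White rabbits, taken by caesarean section on day 28 of a gestation that lasts 31 days. They were fed a milk replacer by tube in incubators that held 95% oxygen for HT7 and 21% oxygen, as in room air, for NT7. The RNA was polyadenylated RNA from homogenised right lung, so every cell type of the organ contributed to each value. What the replicate numbers stand for was not given in the sources used here beyond separate samples of a group, and the p-values therefore measure the spread between these samples only. The question of the comparison was which genes, pathways and cell type markers separated the lungs after the longest of the 3 exposures.

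At birth on day 28 the rabbit lung is in its saccular stage, and in the days that follow septa divide the air sacs while a capillary net grows along them. Type 1 cells line the air spaces for gas exchange, and type 2 cells make surfactant and can replace type 1 cells. Oxygen at high concentration feeds the formation of reactive oxygen species, which oxidize proteins, lipids and DNA. NRF2 is the transcription factor of the antioxidant response, p53 that of the response to DNA damage, and the integrated stress response adjusts protein synthesis through ATF4. VEGFA and the angiopoietins guide the growth of the capillaries.

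The 6 libraries held between 13304717 and 17107271 counts, with the 10 most abundant loci taking 4.99% to 6.48% of a library. Gene names are those of the table, and at 18.5% of the loci tested, IL6, CCL7, CDKN1A and SFTPC among them, the name is that of the human homologue. Levels are given below in CPM, the count of a locus scaled to the library size and corrected by TMM, and differences as the log2 fold change of HT7 against NT7 (log2FC) with its standard error. Adjusted p-values come from edgeR's quasi-likelihood test with Benjamini-Hochberg adjustment over all 12628 loci. On the first principal component of the 500 most variable loci, which held 78.8% of their variance, HT7 replicates 1 to 3 scored 42.1, 17.6 and 38.7 and NT7 replicates 1 to 3 scored -27.1, -37.9 and -33.4. The conditions did not overlap, and HT7 replicate 2 lay nearest to normoxia. For the named genes, values without this sample are given below where leaving it out changed a call.

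Differentially expressed genes (DEGs) had an adjusted p under 0.01 and a log2FC above 2 or below -2. There were 586 DEGs, of which 213 were upregulated (1.69% of the loci tested) and 373 downregulated (2.95%). All 3 HT7 samples lay on the same side of all 3 NT7 samples at 584 of them. Without HT7 replicate 2 the counts were 247 and 544. At an adjusted p under 0.05 and with no minimum on the fold change, 2899 loci were higher (23.0%) and 3063 lower (24.3%), and these calls are the ones counted in the gene lists below. Of the 1277 entries of the 48 lists, 1080 were found in the table, and 1093 of the 1116 loci they gave passed the filter on low counts, 1051 of them different since lists share members. As many as 3502 of these 5962 calls had a log2FC between -1 and 1. With no test, every HT7 sample lay above every NT7 sample at 26.5% of the loci and below at 27.8%. The median log2FC over all loci tested was -0.02.

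**Figure D1:**
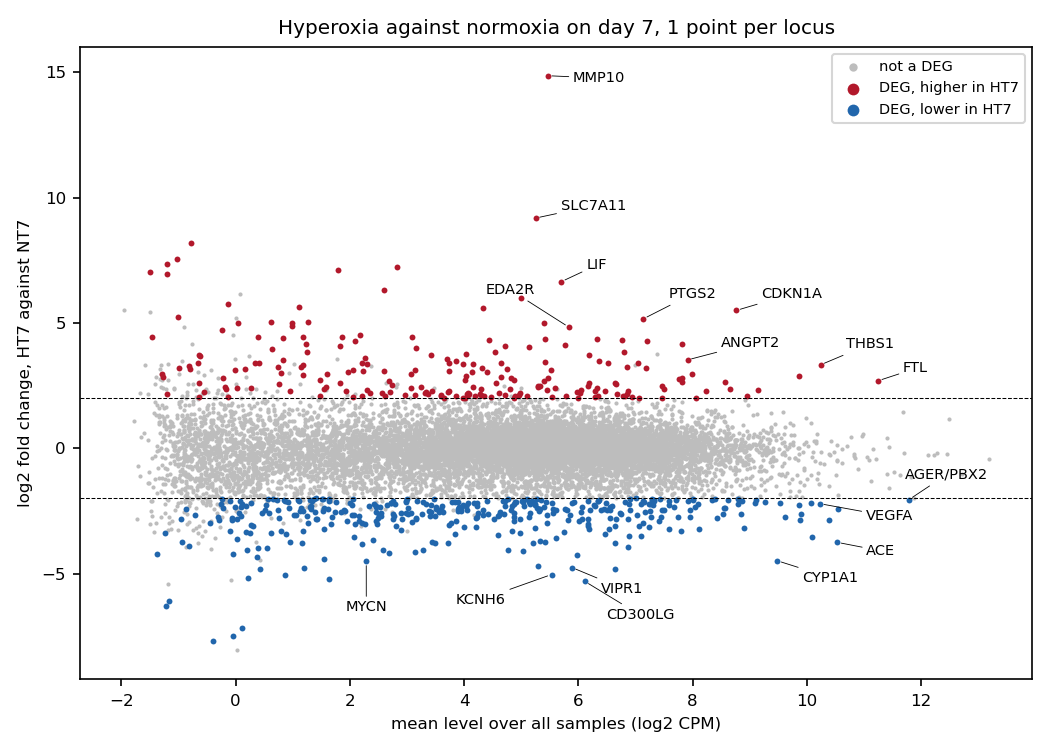
Log2 fold change of HT7 against NT7 (y axis) against the mean log2 CPM over all 17 samples (x axis), with 1 point per locus tested and dashed lines at 2 and -2. The 213 upregulated DEGs (red) reach further from 0 than the 373 downregulated DEGs (blue), which are more numerous. MMP10 had no count in NT7, and its height on the plot is a fitted value that depends on the prior count.

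The largest rises belonged to a matrix protease, a cystine transporter, cytokines and the cell cycle inhibitor p21. MMP10 encodes stromelysin 2, which cleaves many matrix proteins. It had 301, 30.0 and 387 CPM in HT7 replicates 1 to 3 and no count in any NT7 library, which makes it at least 1093-fold higher against the floor of 3 counts per library (edgeR adjusted p = 0.000231). SLC7A11, the cystine carrier that feeds glutathione synthesis, had 82.6, 136 and 218 CPM in HT7 replicates 1 to 3 and 0.303, 0.148 and 0.275 CPM in NT7 (log2FC 9.18, standard error 0.82, adjusted p = 2.50e-06). Both genes were near absent in every normoxia lung and abundant in every hyperoxia lung, with MMP10 lowest in replicate 2 and SLC7A11 lowest in replicate 1. MMP10 is listed on chromosome 1 from 113775354 to 113786608 and SLC7A11 on chromosome 15 from 26382214 to 26463145, in positions as the table gives them, for which the labels name the OryCun2.0 build.

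The WNT inhibitor DKK1 had 94.3, 5.93 and 12.2 CPM in HT7 replicates 1 to 3 and 0.228, 0.148 and 0.344 CPM in NT7 (log2FC 7.23, standard error 1.19, adjusted p = 0.000211). LIF, a cytokine of the interleukin 6 family, had 499.7, 48.0 and 192 CPM in HT7 replicates 1 to 3 and 3.34, 2.08 and 2.00 CPM in NT7 (log2FC 6.64, standard error 0.81, adjusted p = 1.96e-05). CSF3, the growth factor of neutrophils, had 58.0, 2.00 and 33.2 CPM in HT7 replicates 1 to 3 and 0.683, 0.0741 and 0.413 CPM in NT7 (log2FC 6.29, standard error 1.0, adjusted p = 0.000167). In none of the 3 did the groups overlap, but HT7 replicate 2 held the lowest hyperoxia value and replicate 1 the highest in each. The aggrecan-cleaving protease ADAMTS4 had the same order, with 358, 25.0 and 104 CPM in HT7 replicates 1 to 3 and 3.64, 1.48 and 2.48 CPM in NT7 (log2FC 6.0, standard error 0.82, adjusted p = 4.89e-05).

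CDKN1A, which encodes p21, had 1106, 1165 and 2038 CPM in HT7 replicates 1 to 3 and 26.6, 29.0 and 39.8 CPM in NT7 (log2FC 5.50, standard error 0.38, adjusted p = 3.51e-07). Its means were 1436 ± 522 CPM in HT7 and 31.8 ± 7.05 CPM in NT7 (SD, n = 3 each). PTGS2, the inducible cyclooxygenase, had 1013, 112 and 766 CPM in HT7 replicates 1 to 3 and 23.2, 13.6 and 16.1 CPM in NT7 (log2FC 5.16, standard error 0.73, adjusted p = 6.31e-05). The 2 genes differed in how even they were in hyperoxia, since CDKN1A varied by less than a factor of 2 and PTGS2 by more than a factor of 9. The receptor gene IL1RL2 (log2FC 5.02) and RNASE8, a secreted ribonuclease (5.58), completed the rises that could be expressed as a fold. IL1RL2 had only 3 to 5 counts in the NT7 libraries, and the name RNASE8 is that of the human homologue. CRHBP and CD8B were among the same 12, but CD8B is a name taken from the human homologue and both genes were at 3 counts or fewer in every NT7 library. CRHBP had 44.5, 2.66 and 7.21 CPM in HT7 replicates 1 to 3 and 0.152, 0.222 and 0 CPM in NT7. CD8B had 4.54, 4.40 and 6.65 CPM in HT7 replicates 1 to 3 and 0.0759, 0.0741 and 0.138 CPM in NT7, whereas its neighbour CD8A, the other chain of the CD8 co-receptor of T cells, had 1.26, 0.733 and 1.56 CPM in HT7 replicates 1 to 3 and 0.986, 2.22 and 2.96 CPM in NT7 and was not called (log2FC -0.79, edgeR adjusted p = 0.206).

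Among the falls, CD300LG, a receptor of capillary endothelium listed on chromosome 19 from 44263125 to 44276609, came first. It had 1.32, 4.46 and 2.46 CPM in HT7 replicates 1 to 3 and 80.6, 130.5 and 115 CPM in NT7 (log2FC -5.31, standard error 0.41, adjusted p = 9.13e-07). VIPR1, the receptor of vasoactive intestinal peptide, had 2.52, 14.3 and 0.726 CPM in HT7 replicates 1 to 3 and 64.5, 245 and 158 CPM in NT7 (log2FC -4.76, standard error 0.85, adjusted p = 0.000387). The potassium channel gene KCNH6 had 0.441, 3.86 and 0.838 CPM in HT7 replicates 1 to 3 and 51.1, 44.9 and 69.5 CPM in NT7 (log2FC -5.04, standard error 0.64, adjusted p = 2.83e-05). At each of these 3 genes every NT7 sample held more than 4 times the level of any HT7 sample. CYP1A1, the enzyme induced by the aryl hydrocarbon receptor, had 12.2, 62.4 and 77.8 CPM in HT7 replicates 1 to 3 and 1313, 933 and 1174 CPM in NT7 (log2FC -4.49, standard error 0.57, adjusted p = 2.84e-05). MYCN, a transcription factor of growing embryonic tissue, had 0.0631, 0.666 and 0.168 CPM in HT7 replicates 1 to 3 and 3.49, 3.34 and 13.6 CPM in NT7 (log2FC -4.52, standard error 0.82, adjusted p = 0.000457). The other 6 were PLET1 (log2FC -4.71), AMPH (-4.44), PHEX (-4.25) and KCNA6 (-4.18), all without overlap, and GRM3 and TRPV5, which were at 3 counts or fewer in every HT7 library. In NT7, GRM3 had 2.73, 5.19 and 2.96 CPM and TRPV5 had 4.55, 2.30 and 0.964 CPM.

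Many genes of the NRF2 response rose, while the enzymes that remove superoxide and peroxide directly were called in both directions. In the list of NRF2 targets, 21 of 37 loci were higher and 4 lower, with a median log2FC of 0.77. The sulfiredoxin gene SRXN1 had 158, 71.3 and 246 CPM in HT7 replicates 1 to 3 and 6.68, 3.34 and 4.96 CPM in NT7 (log2FC 4.99, standard error 0.53, adjusted p = 7.08e-06). TXNRD1, the cytosolic thioredoxin reductase, had 579, 421 and 719 CPM in HT7 replicates 1 to 3 and 86.0, 72.4 and 85.6 CPM in NT7 (log2FC 2.82, standard error 0.23, adjusted p = 1.23e-06). The glutathione-synthesis genes GCLM and GCLC rose with log2FC values of 2.81 and 2.17, and the quinone reductase NQO1 with 2.74. All 5 lacked overlap between the groups. The heme oxygenase HMOX1 had 379, 131 and 459 CPM in HT7 replicates 1 to 3 and 75.3, 91.1 and 93.6 CPM in NT7 (log2FC 1.90, standard error 0.39, adjusted p = 0.00115), and it was lowest in HT7 replicate 2. The NRF2 list members that fell included the locus of PIR and VEGFD (log2FC -1.81) and the glutathione transferase GSTA4 (-1.73).

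In the list of antioxidant enzymes, 3 of 18 loci were higher and 5 lower (16.7% and 27.8%, where all loci gave 23.0% and 24.3%), with a median of 0.13. The extracellular superoxide dismutase SOD3 fell, having 6.50, 7.86 and 3.91 CPM in HT7 replicates 1 to 3 and 17.6, 37.7 and 27.7 CPM in NT7 (log2FC -2.19, standard error 0.37, adjusted p = 0.000262). The plasma glutathione peroxidase GPX3 fell as well (log2FC -1.54, edgeR adjusted p = 0.00286). The cytosolic dismutase SOD1 rose with 172, 125 and 149 CPM in HT7 replicates 1 to 3 and 111, 106 and 107 CPM in NT7 (log2FC 0.46, standard error 0.12, adjusted p = 0.00469), a smaller difference. The list's median lay between 0.01 and 0.17 with any 1 of the 6 samples left out, where that of all loci was -0.02.

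Iron storage and uptake genes rose together with the NRF2 targets, with which this list shares FTL, FTH1 and HMOX1. In the iron and metal list, 13 of 21 loci were higher and 1 lower, with a median of 1.45. The ferritin light chain FTL had 7108, 4354 and 7266 CPM in HT7 replicates 1 to 3 and 1170.2, 777 and 955 CPM in NT7 (log2FC 2.69, standard error 0.36, adjusted p = 4.05e-05). The transferrin receptor TFRC, which brings iron into cells, was even at 441, 438 and 423 CPM in HT7 against 126, 86.8 and 108 CPM in NT7 (log2FC 2.02, standard error 0.22, adjusted p = 8.25e-06). The iron exporter ferroportin (SLC40A1) was the member that fell, with 22.6, 39.4 and 31.7 CPM in HT7 replicates 1 to 3 and 80.2, 104 and 67.1 CPM in NT7 (log2FC -1.42, standard error 0.20, adjusted p = 6.06e-05). STEAP2, a metalloreductase, had a log2FC of 4.08. The metallothionein MT2A is listed at 2 loci with log2FC values of 3.85 and 3.72. These near copies may share reads, and their levels ranged widely, the first having 862, 104 and 352 CPM in HT7 replicates 1 to 3 and 40.9, 15.7 and 34.7 CPM in NT7.

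**Figure D2:**
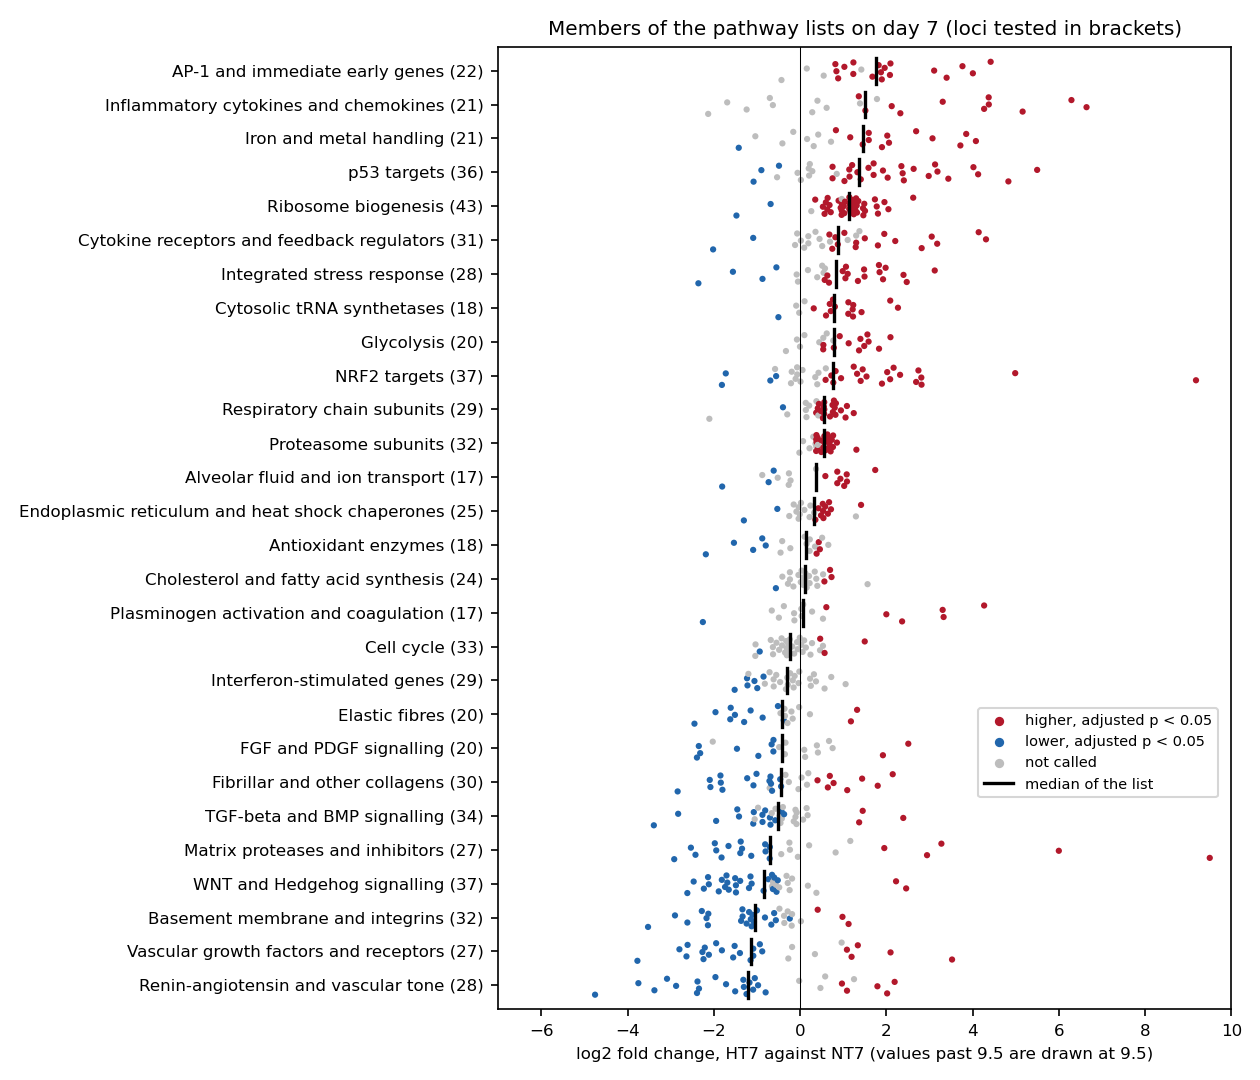
Log2 fold change of HT7 against NT7 (x axis) for each tested locus of the 28 pathway lists (rows, with the number of loci in brackets), where red and blue points were called higher and lower at an adjusted p under 0.05 and black bars are medians. The medians run from -1.21 for the renin-angiotensin and vascular tone genes to 1.75 for the AP-1 and immediate early genes.

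Targets of p53 rose in all 3 hyperoxia samples. In the p53 list, 25 of 36 loci were higher and 3 lower, with a median of 1.37, and 12 of the higher members were DEGs. The mean level of the list, as log2 CPM relative to the NT7 mean, was 1.67, 1.35 and 1.68 in HT7 replicates 1 to 3. EDA2R, a receptor of the TNF receptor family, had 142, 123 and 214 CPM in HT7 replicates 1 to 3 and 6.30, 5.04 and 5.51 CPM in NT7 (log2FC 4.83, standard error 0.28, adjusted p = 1.41e-07). MDM2, the ubiquitin ligase that degrades p53, had 843, 694 and 1144 CPM in HT7 replicates 1 to 3 and 150.2, 136 and 146 CPM in NT7 at its main locus (log2FC 2.63, standard error 0.28, adjusted p = 7.31e-06), and a second locus under the same name was at or below 1.80 CPM. PHLDA3, an inhibitor of AKT, had 152, 97.9 and 136 CPM in HT7 replicates 1 to 3 and 21.5, 13.1 and 9.57 CPM in NT7 (log2FC 3.13, standard error 0.32, adjusted p = 5.68e-06). For each of these 3 genes the lowest HT7 value exceeded the highest NT7 value by more than 4-fold. The stress kinase PLK3 (log2FC 4.02), the sestrin SESN2 (3.44), TIGAR, which lowers glycolytic flux (2.98), and the growth arrest gene GADD45A (3.18) were also DEGs. The pro-apoptotic gene BBC3 had a log2FC of 1.41. Lower members included the sestrin SESN1 (-0.90) and the metastasis suppressor CD82 (-1.08).

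The proliferation genes gave no such separation. In the cell cycle list, 3 of 33 loci were higher and 1 lower, fewer than the 23.0% and 24.3% of all loci. The proliferation marker MKI67 had 36.2, 118 and 56.7 CPM in HT7 replicates 1 to 3 and 42.9, 102 and 179.8 CPM in NT7 and was not called (log2FC -0.63, edgeR adjusted p = 0.305), with -1.22 without HT7 replicate 2 and -0.05 without NT7 replicate 3. Topoisomerase TOP2A had 42.6, 125 and 57.5 CPM in HT7 replicates 1 to 3 and 36.4, 105 and 175 CPM in NT7 and was not called either (log2FC -0.49, adjusted p = 0.434). At both genes the normoxia samples alone covered nearly the whole range of the hyperoxia samples. The median of the list, -0.24, was -0.55 without HT7 replicate 2 and 0.26 without NT7 replicate 3. Thymidylate synthase (TYMS, log2FC 1.5), PCNA (0.57) and the ribonucleotide reductase subunit RRM1 (0.46) were higher, and the locus of cyclin A2 (CCNA2, with BBS7, -0.94) was lower. PCNA and RRM1 were not called without HT7 replicate 2 (0.48 and 0.34), without NT7 replicate 1 (0.42 and 0.36) or without NT7 replicate 2 (0.48 and 0.35), and RRM1 had 0.70 without NT7 replicate 3. With only the HT7 and NT7 samples in the model RRM1 was not called either (edgeR adjusted p = 0.0775).

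Genes of amino acid supply and protein production were higher in many of their members. In the list of the integrated stress response, 17 of 28 loci were higher and 4 lower, with a median of 0.83. The transcription factor ATF3 had 206, 138 and 203 CPM in HT7 replicates 1 to 3 and 62.0, 16.3 and 25.6 CPM in NT7 (log2FC 2.4, standard error 0.42, adjusted p = 0.000353), and the cystathionine lyase CTH had 10.03, 10.7 and 15.5 CPM in HT7 replicates 1 to 3 and 1.29, 1.33 and 1.51 CPM in NT7 (log2FC 3.12, standard error 0.33, adjusted p = 6.24e-06). Asparagine synthetase ASNS rose from 10.2, 10.5 and 10.8 CPM in NT7 to 32.9, 44.0 and 36.2 CPM in HT7, a log2FC of 1.84. DDIT3, which encodes the stress factor CHOP of the same pathway, fell instead, with 0.757, 2.4 and 1.06 CPM in HT7 replicates 1 to 3 and 4.70, 8.82 and 8.06 CPM in NT7 (log2FC -2.36, standard error 0.40, adjusted p = 0.000261). The groups overlapped at none of these 4 genes.

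In the list of cytosolic tRNA synthetases, 14 of 18 loci were higher and 1 lower, with a median of 0.78. The alanine enzyme AARS1 had 778, 523 and 844 CPM in HT7 replicates 1 to 3 and 136, 145 and 164 CPM in NT7 (log2FC 2.27, standard error 0.29, adjusted p = 2.75e-05). The lower call was at WARS1 (log2FC -0.50), whose locus also carries SLC25A29, so its counts cannot be separated. That call was lost without HT7 replicate 2 (-0.46), HT7 replicate 3 (-0.50) or NT7 replicate 1 (-0.36).

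Most of the ribosome biogenesis genes rose. In their list, 39 of 43 loci were higher and 2 lower (90.7% and 4.65%), with a median of 1.14. The rises were mostly of moderate size. The snoRNP protein gene NOP56 had 263, 158 and 214 CPM in HT7 replicates 1 to 3 and 97.4, 78.3 and 107 CPM in NT7 (log2FC 1.17, standard error 0.19, adjusted p = 0.000172), and nucleolin (NCL) had 853, 788 and 691 CPM in HT7 replicates 1 to 3 and 465, 589.7 and 487 CPM in NT7 (log2FC 0.60, standard error 0.11, adjusted p = 0.00067). RPP25, a subunit of the RNase P and MRP complexes that process tRNA and rRNA, had 2.4, 0.733 and 1.45 CPM in HT7 replicates 1 to 3 and 0.228, 0.148 and 0.344 CPM in NT7 (log2FC 2.62, standard error 0.52, adjusted p = 0.000815). It was low in both groups, and its HT7 values differed by more than a factor of 3. Further rises were those of RRP12 (2.05) and WDR12 (1.96). PES1, whose locus also carries SEC14L3 (-1.48), and nucleophosmin NPM1 (-0.68) were lower, but NPM1 was not called without HT7 replicate 2 (-0.62), HT7 replicate 3 (-0.58) or NT7 replicate 1 (-0.45), nor with only the HT7 and NT7 samples in the model (edgeR adjusted p = 0.14).

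Proteasome subunits (24 higher and 0 lower of 32 loci, median 0.55) and subunits of the respiratory chain (20 higher and 1 lower of 29 loci, median 0.55) were higher by less than 1 log2 unit at 23 of the 24 and 17 of the 20 calls. PSMD14, the deubiquitinase of the proteasome lid, had the largest rise of its list, with 93.2, 65.3 and 77.2 CPM in HT7 replicates 1 to 3 and 35.2, 26.7 and 33.5 CPM in NT7 (log2FC 1.30, standard error 0.17, adjusted p = 2.84e-05). In the glycolysis list, 12 of 20 loci were higher and 0 lower, with a median of 0.77. The glucose transporter SLC2A1 had 60.5, 31.6 and 31.2 CPM in HT7 replicates 1 to 3 and 13.05, 7.71 and 8.12 CPM in NT7 (log2FC 2.09, standard error 0.45, adjusted p = 0.00165), and lactate dehydrogenase LDHA had 329, 138 and 148 CPM in HT7 replicates 1 to 3 and 98.4, 69.9 and 70.3 CPM in NT7 (log2FC 1.37, standard error 0.28, adjusted p = 0.00124). HT7 replicate 1 held the highest value of both, and without it the log2FC of LDHA was 0.85.

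In the chaperone list, 11 of 25 loci were higher and 2 lower, and its median of 0.33 was 0.19 without HT7 replicate 2. The mitochondrial chaperonin HSPD1 rose with 474, 364 and 455 CPM in HT7 replicates 1 to 3 and 173, 148 and 164 CPM in NT7 (log2FC 1.41, standard error 0.14, adjusted p = 4.32e-06), whereas CRYAB, a small heat shock protein of muscle and lens, fell (-1.31). Genes of cholesterol and fatty acid synthesis were mostly uncalled (3 higher and 1 lower of 24 loci, median 0.12, between 0.07 without NT7 replicate 2 and 0.28 without NT7 replicate 1).

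Inflammatory cytokines and chemokines were either higher or not called. In their list, 11 of 21 loci were higher and 0 lower, with a median of 1.51, which lay between 1.32 and 1.73 with any 1 sample left out. CCL2 and CCL7, which attract monocytes, are neighbours in the genome. CCL2 had 148, 178 and 270.0 CPM in HT7 replicates 1 to 3 and 18.9, 1.63 and 8.26 CPM in NT7 (log2FC 4.38, standard error 1.13, adjusted p = 0.0055). CCL7 had 125, 114 and 128 CPM in HT7 replicates 1 to 3 and 11.7, 1.71 and 4.41 CPM in NT7 (log2FC 4.37, standard error 0.56, adjusted p = 3.02e-05), so that its 3 hyperoxia values nearly coincided. The neutrophil chemokine CXCL8 had 462, 270.1 and 373 CPM in HT7 replicates 1 to 3 and 76.8, 10.1 and 24.9 CPM in NT7 (log2FC 3.31, standard error 0.96, adjusted p = 0.0106). In fold terms, all 3 chemokines varied more in normoxia than in hyperoxia, and NT7 replicate 1 held the highest normoxia value of each.

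IL6 had 42.1, 3.13 and 8.16 CPM in HT7 replicates 1 to 3 and 1.29, 0 and 1.45 CPM in NT7 (log2FC 4.27, standard error 1.17, adjusted p = 0.00772), a cytokine level that differed 13-fold within HT7 and was not called without HT7 replicate 1 (2.62). IL1B rose by less, with 114, 50.8 and 81.9 CPM in HT7 replicates 1 to 3 and 37.0, 18.6 and 30.8 CPM in NT7 (log2FC 1.51, standard error 0.51, adjusted p = 0.0234). Without HT7 replicate 1, NT7 replicate 2 or NT7 replicate 3, IL1B was not called (1.20, 1.28 and 1.56). Among receptors and feedback regulators, 16 of 31 loci were higher and 2 lower, with a median of 0.87. The decoy receptor IL1R2 had 213, 74.4 and 111 CPM in HT7 replicates 1 to 3 and 27.9, 17.7 and 10.9 CPM in NT7 (log2FC 2.82, standard error 0.57, adjusted p = 0.00095), and the pentraxin PTX3 had 1008, 66.6 and 422 CPM in HT7 replicates 1 to 3 and 26.9, 27.7 and 20.9 CPM in NT7 (log2FC 4.31, standard error 0.65, adjusted p = 0.000114). P-selectin (SELP), which slows leukocytes on activated endothelium, had 68.7, 32.0 and 114 CPM in HT7 replicates 1 to 3 and 14.2, 4.23 and 7.50 CPM in NT7 (log2FC 3.05, standard error 0.52, adjusted p = 0.00026). None of these 5 overlapped between the groups. The apoptosis inhibitor BIRC3, a target of NF-kappaB, rose (4.14), its feedback inhibitor NFKBIA was not called (0.45), and the receptor of LIF (LIFR) fell (-2.02).

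The interferon response was not part of this rise. In its list, 0 of 29 loci were higher and 6 lower, with a median of -0.30 that was -0.16 without NT7 replicate 1. ISG15, a ubiquitin-like protein induced by interferon, had 47.0, 47.4 and 39.3 CPM in HT7 replicates 1 to 3 and 59.2, 21.3 and 32.2 CPM in NT7 and was not called (log2FC 0.25, edgeR adjusted p = 0.607). CMPK2 fell, with 10.3, 14.7 and 9.78 CPM in HT7 replicates 1 to 3 and 39.8, 28.7 and 30.9 CPM in NT7 (log2FC -1.52, standard error 0.20, adjusted p = 3.48e-05), and IFI44L (-1.23) and IFI44 (-1.22) were lower too.

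Immediate early genes, which are switched on within minutes of a signal, mostly rose. In this list, 18 of 22 loci were higher and 0 lower, with a median of 1.75 that was 1.11 without HT7 replicate 1. It was the highest median of the pathway lists, but without that sample those of cytokines, p53 targets and iron handling lay above it. The AP-1 subunit FOSL1 had 37.8, 15.4 and 36.1 CPM in HT7 replicates 1 to 3 and 1.74, 2.08 and 1.72 CPM in NT7 (log2FC 4.01, standard error 0.47, adjusted p = 1.39e-05), and EGR1 had 559, 115 and 244 CPM in HT7 replicates 1 to 3 and 20.8, 37.0 and 29.3 CPM in NT7 (log2FC 3.40, standard error 0.91, adjusted p = 0.00665). FOS had 343, 115 and 100.3 CPM in HT7 replicates 1 to 3 and 63.3, 58.7 and 30.3 CPM in NT7 (log2FC 1.87, standard error 0.53, adjusted p = 0.00984). HT7 replicate 1 was highest in all 3, and neither FOS, EGR1 nor FOSL1 overlapped. Without that sample FOS was not called (1.08). JUN was not called (-0.43).

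Tissue factor, which triggers clotting, rose, while the plasminogen activator PLAU was not called. In the list, 6 of 17 loci were higher and 1 lower, and its median of 0.07 was near that of all loci. The gene of tissue factor (F3) had 1289.8, 864 and 804 CPM in HT7 replicates 1 to 3 and 205, 154 and 216 CPM in NT7 (log2FC 2.36, standard error 0.27, adjusted p = 1.10e-05). Thrombospondin 1 (THBS1) reached 4532, 2668 and 3532 CPM in HT7 against 409, 293 and 367 CPM in NT7 (log2FC 3.33, standard error 0.34, adjusted p = 5.95e-06). Urokinase (PLAU) had 41.8, 30.2 and 36.8 CPM in HT7 replicates 1 to 3 and 26.0, 34.8 and 46.0 CPM in NT7 (log2FC 0.03). The anticoagulant cofactor PROS1 fell (-2.26).

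The blood vessel genes formed the other side of the comparison. Endothelial markers, vascular receptors and regulators of vascular tone were mostly lower, and the list of capillary markers had the lowest median. In bulk RNA, fewer cells of a type and less RNA of its genes per cell cannot be told apart. Of the pan-endothelial markers, 0 of 21 loci were higher and 19 lower, with a median of -1.42, against 24.3% of all loci lower. VE-cadherin (CDH5) had 153, 119.6 and 146 CPM in HT7 replicates 1 to 3 and 479, 587 and 573 CPM in NT7 (log2FC -1.97, standard error 0.14, adjusted p = 3.73e-07), and the endothelial transcription factor ERG had 43.4, 32.6 and 35.5 CPM in HT7 replicates 1 to 3 and 101, 136 and 139.8 CPM in NT7 (log2FC -1.76, standard error 0.14, adjusted p = 1.28e-06). PECAM1, another defining marker, had 852, 368 and 589 CPM in HT7 replicates 1 to 3 and 664, 643 and 583 CPM in NT7 and was not called (log2FC -0.06, adjusted p = 0.833). The mean level of the list, as log2 CPM relative to NT7, was -1.43, -1.42 and -1.5 in HT7 replicates 1 to 3, so all of the hyperoxia lungs were alike in it, replicate 2 included.

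Of the capillary markers, 1 of 23 loci were higher and 18 lower, with a median of -2.39. With members at 3 counts or fewer in HT7 set to their bound, the median was -2.03. The apelin receptor APLNR had 8.39, 15.8 and 8.88 CPM in HT7 replicates 1 to 3 and 154, 150.4 and 147 CPM in NT7 (log2FC -3.77, standard error 0.33, adjusted p = 2.41e-06). The carbonic anhydrase CA4 had 32.5, 6.86 and 8.55 CPM in HT7 replicates 1 to 3 and 46.8, 89.5 and 127 CPM in NT7 (log2FC -2.46, standard error 0.59, adjusted p = 0.00347), and the endothelin receptor EDNRB had 47.4, 99.8 and 65.7 CPM in HT7 replicates 1 to 3 and 199.5, 519.5 and 398 CPM in NT7 (log2FC -2.39, standard error 0.37, adjusted p = 0.000132). Hyperoxia lay below normoxia at each of the 3. The summed level of the list was 1260.0 to 1815 CPM in HT7 and 7024 to 7982 CPM in NT7.

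**Figure D3:**
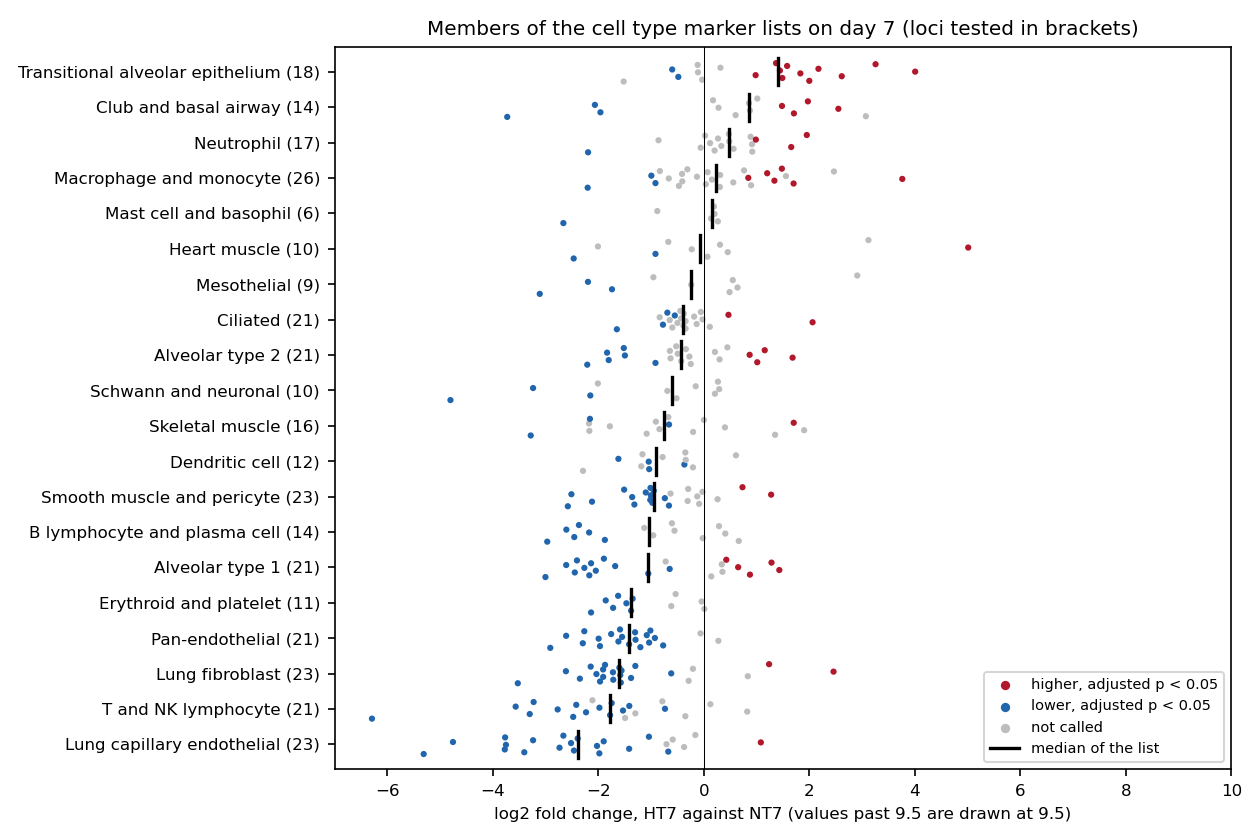
Log2 fold change of HT7 against NT7 (x axis) for each tested locus of the 20 lists of cell type markers (rows, with the number of loci in brackets), coloured by the call at an adjusted p under 0.05, with black bars at the medians. The lowest median is that of the lung capillary endothelial markers (-2.39) and the highest that of the transitional alveolar epithelium (1.41).

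Among vascular growth factors and receptors, 5 of 27 loci were higher and 18 lower, with a median of -1.15. VEGFA, the growth factor that alveolar epithelium supplies to capillaries, had 303, 368 and 259.9 CPM in HT7 replicates 1 to 3 and 1254, 1533 and 1524 CPM in NT7 (log2FC -2.21, standard error 0.22, adjusted p = 5.08e-06). Its receptor KDR had 64.6, 119 and 74.4 CPM in HT7 replicates 1 to 3 and 382, 654 and 538 CPM in NT7 (log2FC -2.61, standard error 0.27, adjusted p = 5.82e-06), while the other receptor, FLT1, was higher with 113, 47.6 and 69.8 CPM in HT7 replicates 1 to 3 and 42.3, 33.2 and 32.9 CPM in NT7 (log2FC 1.09, standard error 0.25, adjusted p = 0.00228). Of the angiopoietins, ANGPT1 fell with 27.1, 53.2 and 29.3 CPM in HT7 replicates 1 to 3 and 183, 183 and 152 CPM in NT7 (log2FC -2.24, standard error 0.24, adjusted p = 7.33e-06) and its antagonist ANGPT2 rose with 553, 439.5 and 593 CPM in HT7 replicates 1 to 3 and 33.7, 51.8 and 52.5 CPM in NT7 (log2FC 3.52, standard error 0.22, adjusted p = 1.66e-07). Their receptor TEK had 52.98, 92.0 and 56.8 CPM in HT7 replicates 1 to 3 and 485, 473 and 447 CPM in NT7 (log2FC -2.80, standard error 0.22, adjusted p = 9.13e-07). None of these 6 genes overlapped between the groups. HT7 replicate 1 was highest in FLT1, which had a log2FC of 0.70 without it. The placental growth factor PGF was higher (2.10) and the Notch ligand DLL4 lower (-2.64). The locus of the lymphatic growth factor VEGFD, which also carries PIR, had 14.3, 21.3 and 10.4 CPM in HT7 replicates 1 to 3 and 49.2, 61.5 and 50.9 CPM in NT7 (log2FC -1.81, standard error 0.27, adjusted p = 9.31e-05).

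Of the genes of the renin-angiotensin system and vascular tone, 5 of 28 loci were higher and 19 lower, with a median of -1.21. ACE, the angiotensin-converting enzyme of capillary endothelium, had 75.7, 246 and 117 CPM in HT7 replicates 1 to 3 and 2158, 1897 and 1854 CPM in NT7 (log2FC -3.75, standard error 0.44, adjusted p = 1.59e-05). It is listed on chromosome 19 from 48352084 to 48370630, next to KCNH6, one of the largest falls. The summed level of the list, ACE included, was 1414 to 1918 CPM in HT7 and 6896 to 7395 CPM in NT7. Endothelial nitric oxide synthase (NOS3) fell with 33.4, 16.6 and 25.0 CPM in HT7 replicates 1 to 3 and 118, 47.0 and 48.3 CPM in NT7 (log2FC -1.51, standard error 0.39, adjusted p = 0.00528). Without NT7 replicate 1, which was highest, the log2FC of NOS3 was -0.93. The vasoconstrictor endothelin 1 (EDN1) had 74.2, 20.5 and 22.5 CPM in HT7 replicates 1 to 3 and 16.8, 22.6 and 9.91 CPM in NT7 and was not called (log2FC 1.25, edgeR adjusted p = 0.104), and without HT7 replicate 1 its log2FC was 0.39. The prostaglandin-degrading enzyme HPGD (-3.09) and the adrenomedullin receptor parts CALCRL (-2.88) and RAMP2 (-2.38) were lower, and adrenomedullin itself (ADM, 1.79) was higher.

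Alveolar epithelial markers were called in both directions. Among type 1 markers, 5 of 21 loci were higher and 12 lower, with a median of -1.05 that was -1.68 without HT7 replicate 2. The locus of AGER, the receptor abundant on type 1 cells, had 1026, 1537 and 730.1 CPM in HT7 replicates 1 to 3 and 5283, 4249 and 4092 CPM in NT7 (log2FC -2.05, standard error 0.28, adjusted p = 5.72e-05), and it carries PBX2 as well. RTKN2 had 4.41, 18.4 and 6.87 CPM in HT7 replicates 1 to 3 and 61.4, 106 and 69.1 CPM in NT7 (log2FC -3.0, standard error 0.50, adjusted p = 0.000229). Among the same defining markers, HOPX and podoplanin (PDPN) were not called, HOPX having 723, 398 and 528 CPM in HT7 replicates 1 to 3 and 516, 423 and 363 CPM in NT7 (log2FC 0.34) and PDPN 570.1, 340.2 and 485 CPM in HT7 replicates 1 to 3 and 451, 384 and 432 CPM in NT7 (log2FC 0.14). The list thus held both genes with clear falls and genes whose groups overlapped, and without HT7 replicate 2 both HOPX and PDPN were called higher (0.53 and 0.32). Caveolin 1 (CAV1, -2.41), which endothelial cells also express, was lower, and keratin 7 (KRT7, 1.43) higher.

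Among type 2 markers, 4 of 21 loci were higher and 6 lower, with a median of -0.43. Surfactant protein C (SFTPC) had 4767, 13213 and 5701 CPM in HT7 replicates 1 to 3 and 13201, 9965 and 8734 CPM in NT7 and was not called (log2FC -0.43, edgeR adjusted p = 0.382). The lipid transporter ABCA3 had 184, 580.4 and 284 CPM in HT7 replicates 1 to 3 and 495, 474 and 511 CPM in NT7 and was not called either (log2FC -0.50, adjusted p = 0.307). For both, HT7 replicate 2 lay above every NT7 sample and HT7 replicates 1 and 3 lay below every one. Without HT7 replicate 2 both were called lower (log2FC -1.02 for SFTPC and -1.07 for ABCA3). The level of the whole list had the same pattern, at -0.86, 0.22 and -0.78 in HT7 replicates 1 to 3 relative to NT7, and its median was -0.89 without HT7 replicate 2, and -0.17 and -0.25 without HT7 replicates 1 and 3. SFTPA1 was higher, with 5577, 11224 and 7651 CPM in HT7 replicates 1 to 3 and 3994, 3545 and 3450.0 CPM in NT7 (log2FC 1.15, standard error 0.39, adjusted p = 0.0238), a call lost without HT7 replicate 2 (0.85), NT7 replicate 2 (1.13) or NT7 replicate 3 (1.11). The surfactant protein B locus, which also carries TMEM150A, was not called (-0.25, and -0.50 without HT7 replicate 2), while the secreted protein SFTA2 (-1.80) and the aspartic protease NAPSA (-1.5) were lower.

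Markers of the transitional state that type 2 cells pass through on their way to type 1 cells were higher. In this list, which shares FOSL1 with the immediate early genes and PLAUR with plasminogen activation, 11 of 18 loci were higher and 2 lower, with a median of 1.41. The tight junction gene CLDN4 had 59.3, 22.6 and 49.1 CPM in HT7 replicates 1 to 3 and 11.8, 10.2 and 7.09 CPM in NT7 (log2FC 2.17, standard error 0.35, adjusted p = 0.000165). Amphiregulin (AREG), a ligand of the EGF receptor, had 31.0, 12.7 and 14.4 CPM in HT7 replicates 1 to 3 and 7.89, 0.519 and 1.10 CPM in NT7 (log2FC 2.61, standard error 0.93, adjusted p = 0.0314), and the TWEAK receptor TNFRSF12A rose by 3.26. KRT18, a keratin of simple epithelium, is listed at 2 loci, the first having 369.8, 197 and 214 CPM in HT7 replicates 1 to 3 and 116, 70.5 and 101 CPM in NT7 (log2FC 1.44, standard error 0.25, adjusted p = 0.00034). The groups did not overlap in these 4. AREG was not called without HT7 replicate 1 (2.10), NT7 replicate 2 (2.11) or NT7 replicate 3 (2.20), and had 4.55 without NT7 replicate 1. The second KRT18 locus was higher too (log2FC 1.58, edgeR adjusted p = 0.0244). That call was lost without HT7 replicate 3 (1.38), NT7 replicate 1 (1.49) or NT7 replicate 2 (1.28).

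In the airway list of club and basal cells, 4 of 14 loci were higher and 3 lower. The basal cell keratin KRT5 had 9.33, 6.33 and 5.81 CPM in HT7 replicates 1 to 3 and 2.12, 1.26 and 2.07 CPM in NT7 (log2FC 1.97, standard error 0.38, adjusted p = 0.000671), and the basal cell factor TP63 rose as well (1.71), but not without HT7 replicate 3 (1.11) or NT7 replicate 1 (1.57). The secretory gene SCGB3A2 was higher, with 209, 193 and 256 CPM in HT7 replicates 1 to 3 and 116, 33.9 and 85.9 CPM in NT7 (log2FC 1.48, standard error 0.38, adjusted p = 0.0051), whereas the club cell cytochrome CYP2F1 fell from 98.8, 107 and 99.4 CPM in NT7 to 4.60, 11.5 and 7.04 CPM in HT7 (log2FC -3.73, standard error 0.50, adjusted p = 4.47e-05). Ciliated cell markers were mostly uncalled (2 higher and 4 lower of 21 loci, median -0.39), and their master regulator FOXJ1 had 52.1, 39.4 and 48.8 CPM in HT7 replicates 1 to 3 and 59.1, 38.3 and 45.4 CPM in NT7 (log2FC -0.03). Among genes of alveolar fluid and ion transport, 8 of 17 loci were higher and 3 lower. The alpha subunit of the epithelial sodium channel (SCNN1A) had 100.4, 58.2 and 82.1 CPM in HT7 replicates 1 to 3 and 40.3, 41.4 and 31.7 CPM in NT7 (log2FC 1.09, standard error 0.20, adjusted p = 0.000541) and the gamma subunit (SCNN1G) was higher too (0.86), while the beta subunit (SCNN1B) was not called (-0.52) unless HT7 replicate 2 was left out (-0.80). The water channel of capillaries, AQP1, fell with 169.7, 172 and 185 CPM in HT7 replicates 1 to 3 and 749, 604 and 492 CPM in NT7 (log2FC -1.81, standard error 0.23, adjusted p = 3.22e-05), and that of the airway epithelium, AQP3, rose (1.74). The median of the transport list, 0.37, was 0.09 without HT7 replicate 2, 0.20 without NT7 replicate 2 and 0.58 without NT7 replicate 1.

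Mesenchymal genes were lower in most lists, with the main fibrillar collagens an exception. Among lung fibroblast markers, 2 of 23 loci were higher and 18 lower, with a median of -1.60. The mesenchymal transcription factor TCF21 had 66.4, 111 and 56.3 CPM in HT7 replicates 1 to 3 and 270.4, 234 and 192 CPM in NT7 (log2FC -1.57, standard error 0.25, adjusted p = 0.000139). NPNT, a matrix ligand of integrins, had 84.7, 263 and 105 CPM in HT7 replicates 1 to 3 and 1789, 1839.7 and 1593 CPM in NT7 (log2FC -3.53, standard error 0.37, adjusted p = 6.04e-06), and the subunit ITGA8 of its receptor had 48.3, 162 and 42.9 CPM in HT7 replicates 1 to 3 and 421, 549.6 and 577 CPM in NT7 (log2FC -2.62, standard error 0.40, adjusted p = 0.000117). In the 3 genes HT7 replicate 2 was the hyperoxia sample nearest to normoxia, yet the groups did not overlap. SFRP1, an inhibitor of WNT signals, and lumican (LUM) were the members that rose (2.46 and 1.24).

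Of the smooth muscle and pericyte markers, 2 of 23 loci were higher and 14 lower, with a median of -0.95. COX4I2, a subunit of complex IV found in pericytes, had the smallest adjusted p of all loci together with EDA2R. It had 8.20, 9.53 and 7.37 CPM in HT7 replicates 1 to 3 and 46.0, 49.8 and 47.3 CPM in NT7 (log2FC -2.51, standard error 0.14, adjusted p = 1.41e-07). Smooth muscle myosin MYH11 was lower, with 255, 198 and 219.7 CPM in HT7 replicates 1 to 3 and 373, 614 and 367 CPM in NT7 (log2FC -1.01, standard error 0.19, adjusted p = 0.000651), and smooth muscle actin ACTA2 was not called, with 355, 195 and 261 CPM in HT7 replicates 1 to 3 and 291, 267 and 269 CPM in NT7 (log2FC -0.03). The pericyte receptor PDGFRB was lower by a smaller step (-0.66, edgeR adjusted p = 0.0144), a call lost without HT7 replicate 1 (-0.61) or NT7 replicate 2 (-0.46).

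Collagens went both ways (8 higher and 15 lower of 30 loci, median -0.45). COL1A1 had 2314, 1946 and 2586 CPM in HT7 replicates 1 to 3 and 2049, 2778 and 2207 CPM in NT7 and was not called (log2FC -0.04, edgeR adjusted p = 0.836), and COL3A1 was not called (-0.26). COL23A1, a transmembrane collagen, fell with 13.8, 21.2 and 9.78 CPM in HT7 replicates 1 to 3 and 122, 104 and 94.4 CPM in NT7 (log2FC -2.84, standard error 0.33, adjusted p = 1.48e-05). Other falls were at COL15A1 (-2.10) and COL13A1 (-2.08), and rises at COL5A3 (2.15), COL8A1 (1.44) and COL12A1 (1.09).

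In the list of elastic fibres, which septa need to form, 2 of 20 loci were higher and 10 lower, with a median of -0.42. Elastin (ELN) had 2051, 2071 and 1658 CPM in HT7 replicates 1 to 3 and 4016, 5444 and 3356 CPM in NT7 (log2FC -1.15, standard error 0.16, adjusted p = 6.80e-05), and fibulin 5 (FBLN5), which assembles the fibres, had 99.3, 83.7 and 80.9 CPM in HT7 replicates 1 to 3 and 243, 301 and 268 CPM in NT7 (log2FC -1.62, standard error 0.16, adjusted p = 3.72e-06). The groups overlapped at neither gene. Fibrillin 1 (FBN1) was not called (0.23). In the list of basement membrane and integrins, 3 of 32 loci were higher and 22 lower, with a median of -1.04. The alveolar collagen IV chain COL4A3 had 107, 178 and 165 CPM in HT7 replicates 1 to 3 and 543, 679 and 760.4 CPM in NT7 (log2FC -2.14, standard error 0.22, adjusted p = 6.09e-06), while the common chain COL4A1 had 4306, 3594 and 4264 CPM in HT7 replicates 1 to 3 and 3499, 5461 and 4972 CPM in NT7 and was not called (log2FC -0.20). Laminin chains LAMA4 (-1.24) and LAMA3 (-1.18) were lower.

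Among matrix proteases and their inhibitors, 5 of 27 loci were higher and 15 lower, with a median of -0.71, although MMP10 and ADAMTS4 gave large rises. The inhibitor TIMP1 had 1568, 291 and 769 CPM in HT7 replicates 1 to 3 and 158, 75.5 and 108 CPM in NT7 (log2FC 2.94, standard error 0.47, adjusted p = 0.000174), lowest in HT7 replicate 2. MMP11 fell, with 7.32, 19.6 and 7.71 CPM in HT7 replicates 1 to 3 and 52.0, 40.1 and 93.4 CPM in NT7 (log2FC -2.43, standard error 0.43, adjusted p = 0.000335). The gelatinase MMP2 was not called (-0.25), and the inhibitor TIMP3 was lower (-1.66).

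Signals that pattern the lung were mostly lower where they were called. Among WNT and Hedgehog genes, 2 of 37 loci were higher and 25 lower, with a median of -0.85. The Hedgehog target GLI1 had 2.84, 3.20 and 4.41 CPM in HT7 replicates 1 to 3 and 13.3, 13.6 and 19.3 CPM in NT7 (log2FC -2.14, standard error 0.23, adjusted p = 8.79e-06), with the ligand SHH itself not called (-0.65, adjusted p = 0.0872) unless HT7 replicate 2 was left out (-0.96). The WNT target AXIN2 was lower (-1.82), and the stem cell receptor LGR5 higher (2.22). Among TGF-beta and BMP genes, 3 of 34 loci were higher and 15 lower, median -0.52. The receptor BMPR2 fell (-1.95), the ligand BMP4 was lower (-0.70), and activin A (INHBA) was higher, with 2.02, 1.07 and 3.86 CPM in HT7 replicates 1 to 3 and 0.455, 0.371 and 0.482 CPM in NT7 (log2FC 2.39, standard error 0.46, adjusted p = 0.000637). Among FGF and PDGF genes, 2 of 20 loci were higher and 8 lower, with a median of -0.42 that ran from -0.72 to -0.21 with 1 HT7 sample left out. FGF1 had 9.71, 13.3 and 7.43 CPM in HT7 replicates 1 to 3 and 56.2, 53.02 and 50.3 CPM in NT7 (log2FC -2.39, standard error 0.25, adjusted p = 6.09e-06). The mesenchymal ligand FGF10, which drives branching, was lower (-0.62), and FGF7, a growth factor for type 2 cells, was higher (1.92).

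Leukocyte markers did not follow the cytokines as a block. Among macrophage and monocyte markers, 6 of 26 loci were higher and 3 lower, with a median of 0.23 that was 0.10 without HT7 replicate 1 and 0.35 without NT7 replicate 1. Osteopontin (SPP1) had 288, 691 and 537 CPM in HT7 replicates 1 to 3 and 47.6, 17.6 and 46.6 CPM in NT7 (log2FC 3.76, standard error 1.19, adjusted p = 0.0178), a call lost without NT7 replicate 2 (3.42). MARCO, the scavenger receptor of resident alveolar macrophages, fell, with 12.1, 24.05 and 8.16 CPM in HT7 replicates 1 to 3 and 102, 27.8 and 74.1 CPM in NT7 (log2FC -2.20, standard error 0.53, adjusted p = 0.00327). The receptor CSF1R, another marker of the list, had 200.2, 219 and 158 CPM in HT7 replicates 1 to 3 and 159, 145 and 164 CPM in NT7 and was not called (log2FC 0.30). The locus of CD68 rose (1.20) but also carries EIF4A1 and other genes.

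Of the neutrophil markers, 3 of 17 loci were higher and 1 lower, with a median of 0.47 that was 0.20 without HT7 replicate 1. S100A9, a calcium-binding protein that fills neutrophils, had 1647, 452 and 667 CPM in HT7 replicates 1 to 3 and 519, 471 and 474 CPM in NT7 and was not called (log2FC 0.92, edgeR adjusted p = 0.174), and without HT7 replicate 1 its log2FC was 0.20. The receptor of CSF3 (CSF3R) had 184, 97.7 and 209 CPM in HT7 replicates 1 to 3 and 139, 161 and 126 CPM in NT7 (log2FC 0.20, not called). The level of the list was 0.91, -0.03 and 0.00 in HT7 replicates 1 to 3 relative to NT7, so replicate 1 stood above the rest.

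The lymphocyte markers that were called were lower in hyperoxia, while CD8B, described above and in neither list, was higher. Of the T and NK cell markers, 0 of 21 loci were higher and 14 lower, with a median of -1.78, or -1.75 with members at the floor set to their bound. The T cell receptor component CD3E had 0.757, 1.07 and 0.615 CPM in HT7 replicates 1 to 3 and 1.44, 3.56 and 4.61 CPM in NT7 at its main locus (log2FC -1.98, standard error 0.71, adjusted p = 0.0314). It was not called without HT7 replicate 1 (-1.94), HT7 replicate 3 (-1.81), NT7 replicate 2 (-1.90) or NT7 replicate 3 (-1.62). TRAT1 had no count in any HT7 library and 0.379, 0.445 and 1.03 CPM in NT7, which is at least 3.34-fold lower. Of the B cell markers, 0 of 14 loci were higher and 6 lower, CD79B having 1.39, 0.799 and 0.223 CPM in HT7 replicates 1 to 3 and 3.26, 3.86 and 5.30 CPM in NT7 (log2FC -2.37, standard error 0.52, adjusted p = 0.00172). In the small list of dendritic cells, 0 of 12 loci were higher and 4 lower, with a median of -0.91. The share lower was 33.3%, where all loci gave 23.0% higher and 24.3% lower. In that of mast cells and basophils, 0 of 6 loci were higher and 1 lower, with a median of 0.16. KIT (-2.66), the mast cell call, is also a capillary marker.

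The erythroid and platelet list, which reads blood left in the tissue, was lower (0 higher and 7 lower of 11 loci, median -1.38). The heme synthesis enzyme of red cells, ALAS2, had 45.5, 38.6 and 56.4 CPM in HT7 replicates 1 to 3 and 147, 176 and 110.2 CPM in NT7 (log2FC -1.63, standard error 0.31, adjusted p = 0.00059). The summed level of this list was 97.4 to 117 CPM in HT7 and 206 to 298 CPM in NT7, and its part in the other results was not tested. Among markers of tissue around the lung, heart muscle had 1 higher and 2 lower of 10 loci (median -0.08). Skeletal muscle had 1 higher and 3 lower of 16 loci (median -0.76). Mesothelium had 0 higher and 3 lower of 9 loci (median -0.24), and nerve 0 higher and 3 lower of 10 loci (median -0.61). The shares lower in mesothelium (33.3%) and nerve (30.0%) were above the 24.3% of all loci. The level of the nerve list relative to NT7 was -1.22, -1.02 and -1.38 in HT7 replicates 1 to 3. Of the defining genes of these lists, the heart troponin TNNT2 was at or below 2.46 CPM in all 6 samples and skeletal actin ACTA1 was at or below 7.57 CPM. The mesothelial gene UPK3B fell from 184, 157 and 80.5 CPM in NT7 to 6.81, 33.8 and 8.38 CPM in HT7 (log2FC -3.11). The heart marker called higher was ANKRD1 (5.01), a stress gene also expressed outside the heart.

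The hyperoxia lungs differed among themselves in how far they stood from normoxia. HT7 replicate 2 was the sample nearest to NT7 at 164 of the 213 upregulated and 302 of the 373 downregulated DEGs. Its median deviation from the NT7 mean, in log2 CPM, was 2.18 at the upregulated DEGs, against 2.87 and 2.79 in replicates 1 and 3. At the downregulated DEGs it was -1.99, against -2.68 and -2.75. The 3 values lay within 1 log2 unit of each other at 106 upregulated and 161 downregulated DEGs, and spread over more than 3 units at 19 and 5. These values describe samples that also entered the choice of the DEGs.

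Genes differed in how far replicate 2 stood apart from the other hyperoxia samples. MMP10, LIF, ADAMTS4, PTGS2, PTX3 and TIMP1 were at less than 40% of the level of either other hyperoxia sample in it. In CCL2, CDKN1A and SLC7A11 it lay between the other 2 samples. By lists, the level relative to NT7 in HT7 replicates 1 to 3 was 2.33, 1.09 and 1.74 for immediate early genes and 1.24, 0.72 and 1.12 for ribosome biogenesis, both lowest in replicate 2. It was 1.04, 1.02 and 1.23 for NRF2 targets and 1.86, 1.79 and 1.89 for cytokines, with smaller differences between the samples, although SRXN1, HMOX1, CSF3 and IL6 of these lists were lowest in replicate 2. For the cell cycle list it was -0.43, 0.42 and -0.18, where NT7 ran from -0.80 to 0.73.

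**Figure D4:**
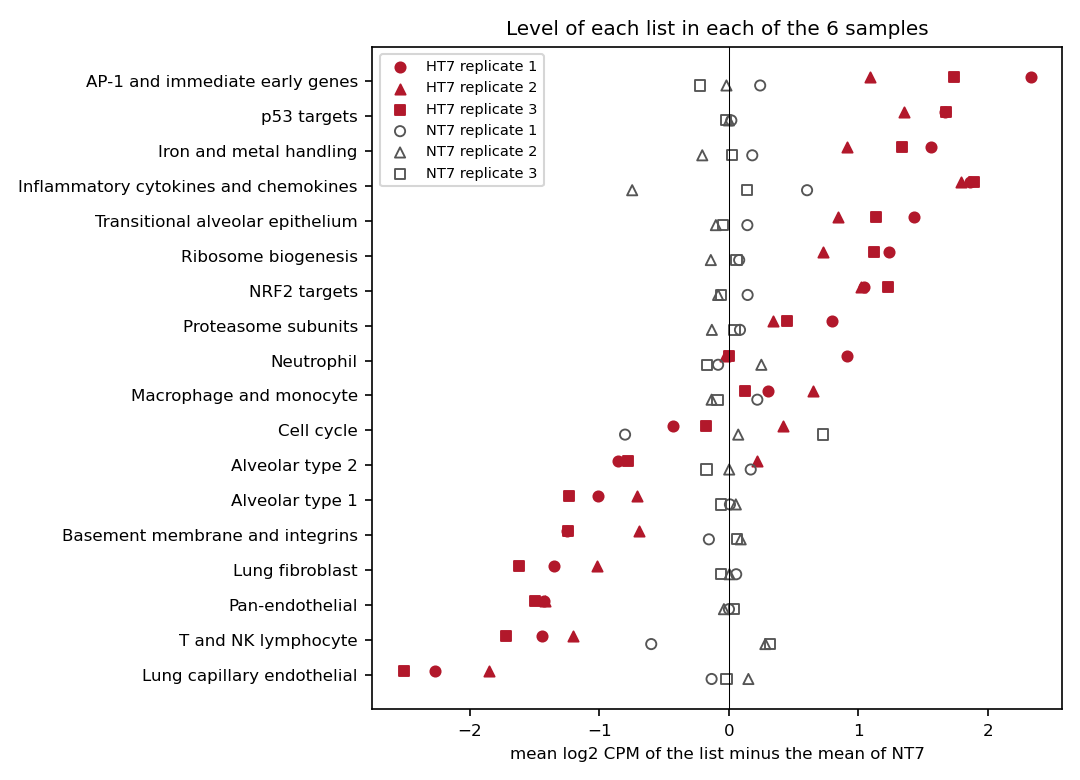
Mean log2 CPM of 18 of the gene lists in each of the 6 samples, relative to the mean of the 3 NT7 samples (x axis). Filled red symbols are HT7 and open symbols NT7, with a shape for each replicate number, which was not taken to pair the samples. HT7 replicate 2 (red triangles) lies nearer to NT7 for immediate early genes at 1.09 and level with the others for pan-endothelial markers at -1.42.

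The day 7 response was set beside those of days 3 and 5, when other pups of the same design were sampled (HT3, NT3 and NT5 with 3 samples each, HT5 with 2). The difference of the effects was tested in the same model. Against day 5, no locus had an effect that differed at an adjusted p under 0.05 (0% of 12628 loci) with edgeR's quasi-likelihood test. At an unadjusted p under 0.05 there were 1078, DESeq2 called 28, and without HT7 replicate 2 edgeR called 105. Against day 3, the effect was higher on day 7 at 1091 loci (8.64%) and lower at 1399 (11.1%), 2490 in all, and at 1578 without NT7 replicate 2. Of the 586 DEGs of day 7, 427 had an effect that differed from that of day 3. In each case the difference had the sign of the day 7 effect, a direction favoured by choosing the DEGs on day 7. The day 3 effect itself had the other sign at some of them, as at CD300LG (log2FC 0.28 on day 3 and -5.31 on day 7).

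The named genes differed in when their effect appeared and in whether it grew. In the order of days 3, 5 and 7, CCL7 had a log2FC of 4.12, 5.00 and 4.37, and ANGPT2 of 2.38, 4.23 and 3.52. EDA2R went from 2.04 to 4.97 and 4.83, a difference between days 7 and 3 of 2.79 (edgeR adjusted p = 0.000546). PTGS2 went from 0.14 to 3.07 and 5.16, a difference between days 7 and 3 of 5.02 (standard error 0.93, edgeR adjusted p = 0.00309). EGR1 went from -1.17 to 0.95 and 3.40. Among the falls, TEK had -0.03, -1.60 and -2.80, a difference between days 7 and 3 of -2.77 (adjusted p = 0.000231), and GPX3 went from 1.21 to -0.96 and -1.54. For CCL7 the difference between days 7 and 3 was 0.25 and was not called (adjusted p = 0.853).

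By lists, the median log2FC on days 3, 5 and 7 was 0.30, 1.47 and 1.37 for p53 targets. It was 0.15, 0.80 and 1.75 for immediate early genes, and 1.02, 2.26 and 1.51 for cytokines. On the side of the falls, it was -0.37, -1.63 and -2.39 for capillary markers and -0.27, -1.13 and -1.60 for fibroblast markers. Member by member, the effect was higher on day 7 than on day 3 at 30 of 43 ribosome biogenesis loci and 20 of 36 p53 loci, against 8.64% of all loci. It was lower at 15 of 23 capillary, 16 of 21 pan-endothelial and 14 of 23 fibroblast loci, against 11.1%. Of the 21 cytokine loci, 3 differed. The median of the skeletal muscle list was 2.73 on day 3, 3.15 on day 5 and -0.76 on day 7, and the part of muscle RNA in the differences between days was not tested.

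**Figure D5:**
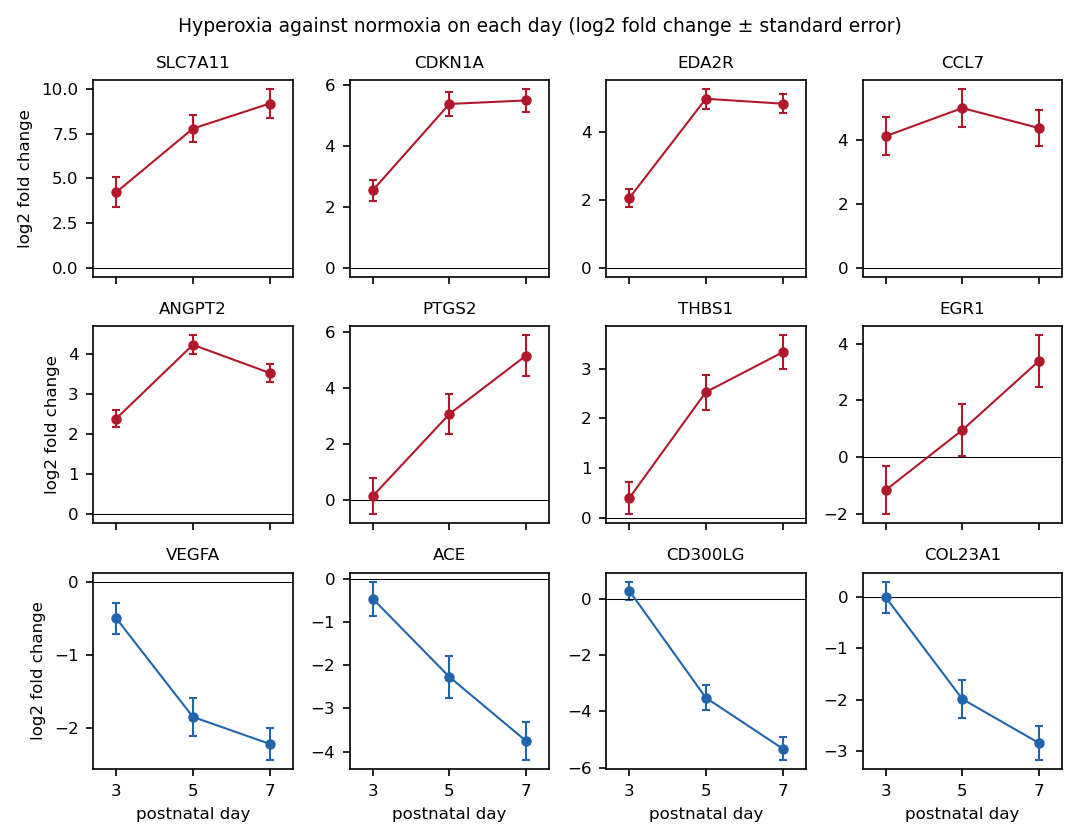
Log2 fold change of hyperoxia against normoxia on postnatal days 3, 5 and 7 (x axis) for 12 named genes, with bars of 1 standard error from the edgeR model. SLC7A11, CDKN1A, EDA2R, CCL7 and ANGPT2 are above 2 on each day, while on day 3 PTGS2, THBS1, EGR1, ACE, CD300LG, COL23A1 and VEGFA are between -1.17 (EGR1) and 0.40 (THBS1). The vertical scales differ between panels.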

How the data were processed

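RNA sequencing of right lung gave raw read counts per locus, which the authors deposited as 1 table of 17 samples. The submitters' processing notes name FastQC, STAR 2.7.10a and the OryCun2.0 build, and the counting program is not given in the sources used here. Lines were reduced to 1 per locus ID (13827 lines, 13313 loci). Loci passing filterByExpr were fitted with edgeR 4.0.16 (R 4.3.3) on all 17 samples, with 6 group means, TMM normalization, quasi-likelihood F tests, a prior count of 0.125 and Benjamini-Hochberg adjustment. DESeq2 1.42.0 was an alternative. Each library held 13304717 counts or more, and at 3 counts or fewer in every library of a group no fitted fold change is given. On simulated data with 200 changed loci, 191 were recovered (95.5%) and no other was called. The simulated counts were drawn from the spread fitted here, with no change at any other locus. The changed loci were above a minimum level and were moved past the log2FC cut. The simulation therefore cannot show the share of false calls in the real data. Named genes were the 12 largest rises and 12 largest falls, without overlap and with a mean log2 CPM of at least 1, the defining members of each list, up to 6 called members per list and direction, and the study's own genes of interest. A few genes under this rule are not reported here. Genes outside this rule, mostly uncalled list members given for contrast, were chosen after their values were seen. The comparison, the lists and the rule were chosen with earlier results of these data known, so no list is independent support. No genome was used, so sequences and values per transcript length are not given.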

Additional observations from a re-analysis of the deposited data

Results flagged for a closer look

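Each value here is the log2FC of day 7 minus that of day 3, and each is listed because the test of this difference in the edgeR model (quasi-likelihood test, Benjamini-Hochberg adjustment over 12628 loci) gave an adjusted p under 0.05. The genes were chosen for their day 7 effect, which favours a larger size on that day. Among the rises, the difference was 5.75 for LIF, 5.75 for ADAMTS4, 5.55 for IL1RL2, 5.02 for PTGS2, 4.97 for SLC7A11, 4.24 for RNASE8, 2.96 for CDKN1A, 2.79 for EDA2R and 1.91 for MDM2. SLC7A11 had the largest edgeR adjusted p of these (0.0465), its effect going from 4.22 to 9.18. Among the falls, it was -5.59 for CD300LG, -4.72 for CYP1A1, -4.17 for KCNH6, -4.11 for VIPR1, -3.89 for MYCN, -3.51 for PHEX, -3.50 for PLET1, -3.29 for ACE, -3.14 for AMPH, -3.0 for KCNA6, -2.84 for COL23A1, -2.04 for FGF1, -1.99 for MMP11 and -1.79 for the locus of VEGFD and PIR. In the order of days 3, 5 and 7, the effect was 0.28, -3.51 and -5.31 for CD300LG, and for CYP1A1 0.23, -2.26 and -4.49. Loci at 3 counts or fewer in every library of a group on either day were left out of this list.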

How the results depend on the processing

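The counts of 213 and 373 DEGs were 228 and 403 with DESeq2, 195 and 305 with only the groups in the contrast, and between 205 and 230 and between 335 and 374 under the other normalizations, filters, lines and prior counts. With 1 sample left out they ran from 167 (without HT7 replicate 1) to 247 (without HT7 replicate 2) and from 278 (without HT7 replicate 3) to 544. At a log2FC threshold of 1 they were 792 and 1242. DESeq2 called 580 of the 586 DEGs. The loci whose effect differed between days 7 and 5, 0 with edgeR, were 28 with DESeq2 and from 0 to 105 with 1 sample left out, and the 2490 that differed between days 7 and 3 ranged from 1578 to 3578. Deviations from the group means of same-numbered samples correlated at 0.172, 0.109 and 0.0677, not all above 0.1, so the replicate numbers were not taken to pair the samples, which does not show that they were unpaired. With the replicate number within day as a block there were 214 and 385 DEGs, 538 of them among the 586. Among the named genes, the block changed the call of JUN (log2FC -0.45, edgeR adjusted p = 0.0405) and of a second CD3E locus (-2.12, edgeR adjusted p = 0.0367), both then lower.

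Of the named genes' values under the alternatives, 16 changed sign, none of them at a gene called in either fit. With 1 sample left out, the log2FC ran from -0.27 to 0.16 for ACTA2, from -0.14 to 0.10 for COL1A1, from -0.012 to 0.47 for CSF3R, from -0.16 to 0.16 for FOXJ1, from -0.035 to 0.74 for ISG15, from -0.032 to 0.32 for PDPN, from -0.40 to 0.19 for PECAM1, from -0.16 to 0.25 for PLAU, from -0.039 to 0.92 for TNNT2 and from -1.07 to 0.092 for TOP2A. With only the groups in the contrast, ACTA2 had 3.01e-04 and FOXJ1 0.0027. The cause was not tested. Of 672 list medians under the alternatives, 617 moved by less than the spread between samples. Those of the cell cycle, mast cell (-0.26 to 0.58), heart muscle (-0.69 to 0.33) and plasminogen (-0.09 to 0.25) lists changed sign with 1 sample left out, and those of the ciliated (-0.54 to -0.25), mesothelial (-0.35 to -0.10) and skeletal muscle lists (-1.22 to -0.54) ranged widely. Loci with few counts, lymphocyte genes among them, could show large differences only.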

Other observations

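Several members of the lists that were not named above also had called differences. DDAH1, which breaks down an inhibitor of nitric oxide synthases, had 11.9, 10.1 and 15.8 CPM in HT7 replicates 1 to 3 and 2.5, 3.34 and 2.41 CPM in NT7 (log2FC 2.19, standard error 0.28, adjusted p = 3.39e-05). ARG2, an arginase that competes for the substrate of these synthases, had 42.6, 24.6 and 22.9 CPM in HT7 replicates 1 to 3 and 6.07, 8.97 and 7.16 CPM in NT7 (log2FC 2.02, standard error 0.28, adjusted p = 5.13e-05). Both rose in every HT7 sample while NOS3 fell. HIF1A, the oxygen-regulated transcription factor, had 519.6, 359 and 530.3 CPM in HT7 replicates 1 to 3 and 221, 193 and 202 CPM in NT7 (log2FC 1.19, standard error 0.16, adjusted p = 5.39e-05). The BMP inhibitor SOSTDC1 had 10.9, 17.1 and 11.7 CPM in HT7 replicates 1 to 3 and 107, 90.3 and 85.0 CPM in NT7 (log2FC -2.83, standard error 0.23, adjusted p = 1.10e-06). The groups overlapped at none of these 4 genes.

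The retinal dehydrogenase ALDH1A1, which makes retinoic acid, had 143, 271 and 184 CPM in HT7 replicates 1 to 3 and 971, 813 and 721 CPM in NT7 (log2FC -2.07, standard error 0.24, adjusted p = 1.41e-05), so every HT7 sample lay below every NT7 sample. The airway mucin MUC5B went the other way, with 17.8, 37.4 and 9.27 CPM in HT7 replicates 1 to 3 and 3.94, 1.78 and 5.23 CPM in NT7 (log2FC 2.55, standard error 0.79, adjusted p = 0.0156). It was not called without HT7 replicate 2 (log2FC 1.89, edgeR adjusted p = 0.0666) or without NT7 replicate 2 (log2FC 2.22, edgeR adjusted p = 0.0660).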
